A study of Mus musculus with 12 samples.

Results

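The macrophage genes described here are 30 mouse genes that are used to recognise macrophages and related myeloid cells in tissue: C1qa, C1qb, C1qc, Csf1r, Adgre1, Trem2, Cd14, Msr1, Mertk, Fcgr1, Fcgr3, Cd84, Tyrobp, Fcer1g, Laptm5, Lst1, Cd68, Ctss, Ctsb, Lyz2, Mpeg1, Lgals3, Gpnmb, Ptprc, Cd53, Cd52, Cd37, Ms4a7, Spi1 and Aif1. They were chosen by name as known macrophage genes, with earlier results of these data known, and all 30 were found among the 55421 genes of the deposited count table. RNA of ventricular tissue from wild-type mice was sequenced in 12 libraries, 4 in each of 3 groups. In the AngII_FI group, mice carried an osmotic minipump with angiotensin II, which constricts vessels and makes the heart muscle thicken, and received Forsythoside I, a phenylethanoid glycoside from the plant Forsythia, at 50 mg/kg into the peritoneum every other day until day 14. Mice of the AngII group received angiotensin II and vehicle, and mice of the saline group received saline and vehicle. All mice therefore received a vehicle or the compound. The strain, sex, age and angiotensin II dose were not given in the sources used here. Nor was it stated that each library came from 1 mouse, so p-values measure the spread between libraries only.

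Macrophages live in the healthy heart, where they clear dying cells and debris, and their number can grow by division or by entry of blood monocytes when the heart is under pressure or injured. Their receptors sense growth factors, antibodies, lipids and dying cells, and several of these receptors signal through small adaptor proteins such as those of Tyrobp and Fcer1g. The C1q chains, which macrophages make themselves, start the classical complement cascade and tag cells for removal.

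Total counts ran from 68874852 to 80624227 per library, so 3 counts equalled 0.0372 to 0.0436 CPM (counts per 1000000 counts of the library), a floor that covers counting error only. Of these counts, 29.1% to 38.8% were mitochondrial. Library AngII_FI 3 held liver transcripts: a list of 20 hepatocyte genes summed to 30335 CPM in it, against 98.5 to 190 CPM in the other 11 libraries. Alb, serum albumin, stood at 14478 CPM in that library and at most at 17.1 CPM elsewhere, that highest value being in AngII 3. Xist, the RNA that coats the inactive X chromosome of female cells, was at 171 CPM in AngII_FI 3 and at no more than 0.202 CPM elsewhere. AngII_FI 3 therefore held RNA of female cells, and differed from the other 11 libraries in this as well as in its liver RNA. Whether its ventricular RNA, its liver RNA or both carried the Xist was not tested. Liver has macrophages of its own, the Kupffer cells, and their 7 listed markers summed to 78.3 CPM in AngII_FI 3, against 15.6 to 22.7 CPM in the others. Clec4f, a Kupffer cell lectin, was at 21.2 CPM in AngII_FI 3 and at 0.0496 to 0.601 CPM elsewhere. Cd5l, a secreted macrophage protein, was at 11.8 CPM there and at no more than 0.115 CPM elsewhere. Each comparison with AngII_FI is therefore given with and without that library. The ventricular label held in all 12 libraries, where 10 cardiomyocyte genes summed to 34367 to 48035 CPM.

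**Figure D1:**
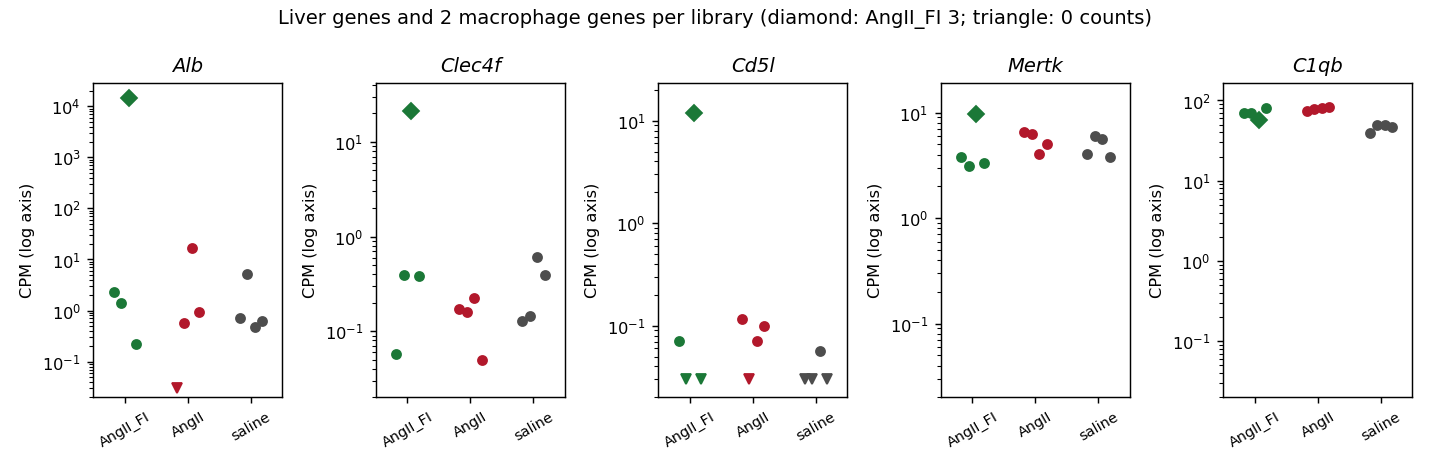
CPM (log axis) of Alb, Clec4f, Cd5l, Mertk and C1qb in each library, with AngII_FI left, AngII in the middle and saline right; each point is 1 library, the diamond is AngII_FI 3 and triangles mark libraries with 0 counts. The diamond stands far above all other points for Alb (14478 CPM), Clec4f (21.2 CPM) and Cd5l (11.8 CPM), is the highest point for Mertk (9.64 CPM), and is the lowest AngII_FI point for C1qb (57.6 CPM).

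Per kilobase of exon, Lyz2 was the most abundant of the 30 genes. Lyz2 encodes the lysozyme of myeloid cells and averaged 189 ± 19.4 CPM per kb in AngII_FI, 199 ± 15.4 in AngII and 147 ± 26.7 in saline (SD, n = 4 each). Ctsb, a lysosomal cysteine protease that many cell types make, averaged 65.6 ± 5.04, 65.3 ± 4.04 and 65.3 ± 3.85 CPM per kb in AngII_FI, AngII and saline. The C1q chains came next: in saline, C1qb averaged 42.5 ± 4.53, C1qa 42.0 ± 4.81 and C1qc 19.6 ± 1.23 CPM per kb. C1qb and C1qa did not differ beyond their spread in saline, whereas Ctsb stood above both there, and C1qb at 72.9 ± 3.21 CPM per kb passed Ctsb in AngII. Ctss, a cysteine protease of antigen-presenting cells, followed at 13.1 ± 1.41 CPM per kb in saline, overlapping the spread of Tyrobp at 12.5 ± 2.28. At the low end stood Gpnmb, a glycoprotein of lipid-laden macrophages, at 0.118 ± 0.036 CPM per kb in AngII_FI, 0.154 ± 0.0369 in AngII and 0.143 ± 0.0564 in saline. All 30 genes passed the filter on low counts that left 17376 genes to test. The smallest count of a member in any library was 24, for Lst1.

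Summed over the 30 genes, the libraries held 1037 to 1132 CPM in AngII_FI, 1059 to 1241 CPM in AngII and 823 to 986 CPM in saline. Neither angiotensin II group overlapped saline. Without Ctsb and Lyz2, which dominate that sum, the sums were 401 to 458 CPM in AngII_FI, 433 to 525 CPM in AngII and 271 to 338 CPM in saline. The number of the 30 genes that stood above the highest saline library was 21 to 24 in each AngII_FI library and 23 to 28 in each AngII library, against 14.3% to 32.4% of all tested genes per AngII_FI library and 18.8% to 34% per AngII library. The 30 genes moved together between libraries: in saline 1 to 4, 7, 25, 24 and 5 of them stood above their saline mean. Counts of these genes are therefore not counts of separate results. In bulk RNA, more macrophages and more RNA of these genes per cell cannot be told apart.

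**Figure D2:**
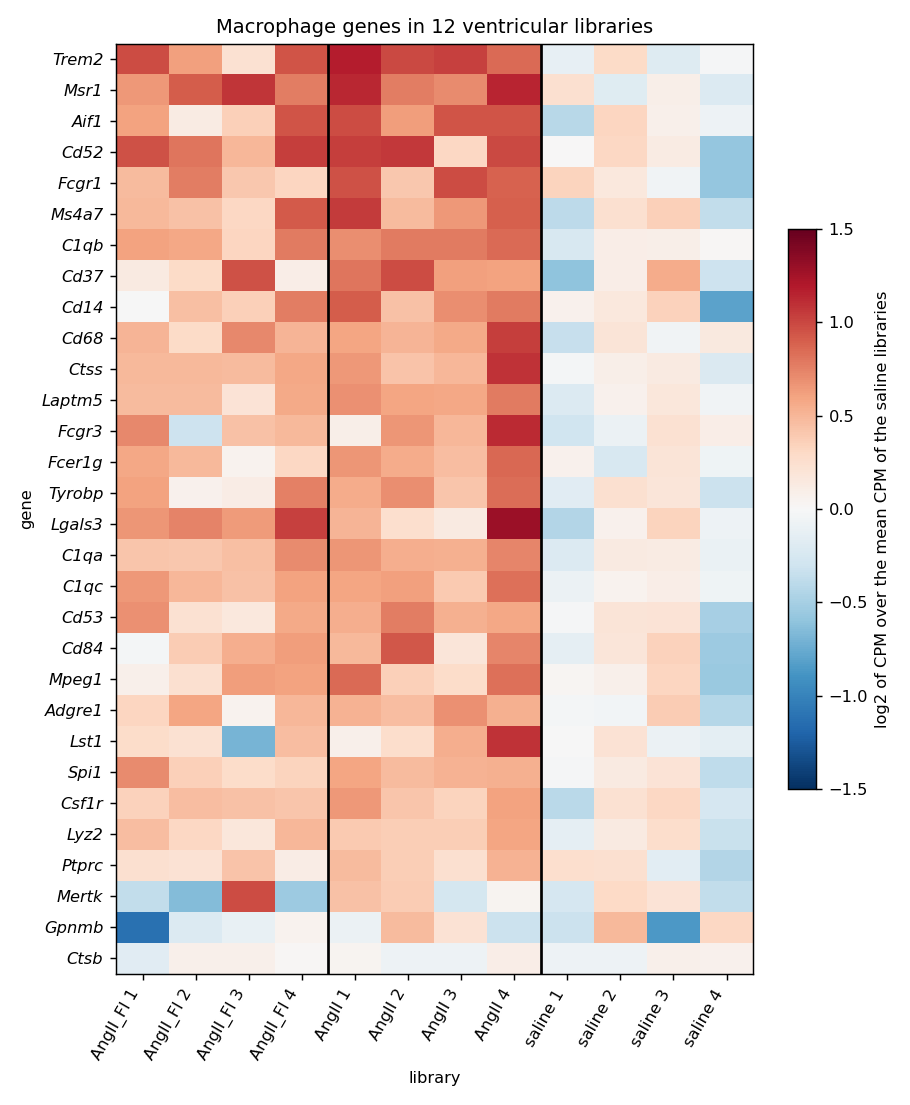
Level of each of the 30 genes (down the page, by their change with angiotensin II) in each library (across: AngII_FI, AngII, saline), as log2 of its CPM over the mean CPM of the 4 saline libraries; red is higher and blue lower. Most genes are red in both angiotensin II groups; Ctsb, Gpnmb and Mertk, at the bottom, are not, and the Mertk field of AngII_FI 3 stands out at 9.64 CPM.

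With angiotensin II, 8 of the 30 macrophage genes rose against saline and none fell: C1qa, C1qb, C1qc, Trem2, Msr1, Laptm5, Cd68 and Ctss. Over all 17376 genes tested, 1.57% were higher and 0.662% lower by the same rule, an adjusted p under 0.05 in edgeR's quasi-likelihood test with Benjamini-Hochberg adjustment. The median log2 fold change of the 30 was 0.61, against 0.0047 over all genes, and 29 of 30 lay above 0, against 50.6% of all genes. At an unadjusted p under 0.05, 26 of the 30 were higher, against 9.37% of all genes. In 21 of the 30 every AngII library stood above every saline library, which held for 7.74% of all genes.

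All 3 C1q chains, whose genes lie side by side on chromosome 4 of GRCm38 (C1qa at chr4:136895917-136898803, C1qb at chr4:136880129-136886187 and C1qc at chr4:136889804-136893065, all on the minus strand), rose. C1qa had 58.3, 57.6, 59.4 and 71.5 CPM in AngII_FI libraries 1 to 4, 68.8, 63.7, 63.1 and 72.7 CPM in AngII, and 38.0, 48.1, 47.6 and 40.9 CPM in saline. No library with angiotensin II overlapped saline, and AngII_FI 4 stood above the other AngII_FI libraries. C1qb had 70.6, 69.2, 57.6 and 79.6 CPM in AngII_FI, 74.9, 79.3, 79.6 and 83.5 CPM in AngII, and 39.2, 49.8, 49.4 and 46.8 CPM in saline. Its lowest AngII_FI value was that of the library with liver RNA, and it too was above every saline library. C1qc had 59.0, 53.2, 51.1 and 57.6 CPM in AngII_FI, 56.9, 57.9, 49.5 and 67.1 CPM in AngII, and 35.5, 39.2, 40.3 and 36.1 CPM in saline, again without overlap with saline. For AngII against saline the log2 fold changes were 0.60 ± 0.10 (SE) for C1qa, 0.76 ± 0.12 for C1qb and 0.60 ± 0.10 for C1qc, or 1.52-fold, 1.70-fold and 1.51-fold. The adjusted p-values (edgeR's quasi-likelihood test, Benjamini-Hochberg) were 0.0138, 0.0107 and 0.0135. C1qb passed the threshold whichever 1 of the 12 libraries was left out. C1qa was lost without saline 4 or without AngII 4, and C1qc without saline 4.

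Of the 9 receptors, 2 rose. Trem2 (chr17:48346401-48354147, plus strand) encodes a lipid receptor that signals through the Tyrobp adaptor. It had 3.93, 3.06, 2.33 and 3.81 CPM in AngII_FI, 4.50, 3.95, 4.03 and 3.58 CPM in AngII, and 1.83, 2.42, 1.73 and 1.97 CPM in saline. AngII did not overlap saline, while the AngII_FI library with liver RNA, at 2.33 CPM, lay below saline 2. Msr1 (chr8:39581685-39642673, minus strand), a scavenger receptor for modified lipoproteins, had 3.81, 4.56, 5.11 and 4.14 CPM in AngII_FI, 5.34, 4.15, 3.98 and 5.37 CPM in AngII, and 2.88, 2.15, 2.59 and 2.11 CPM in saline. No angiotensin II library overlapped saline. The log2 fold changes of AngII against saline were 0.99 ± 0.20 for Trem2 (adjusted p = 0.0285) and 0.93 ± 0.16 for Msr1 (adjusted p = 0.0156, edgeR). Trem2 lost its call in 7 of the 12 fits that each left out 1 library (saline 1, 3 or 4, or any AngII library), and Msr1 without saline 4 or AngII 4.

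The other 7 receptors did not pass the threshold. Csf1r, the receptor for the growth factor on which macrophages depend, averaged 42.7 ± 1.51 CPM in AngII_FI, 45.5 ± 4.70 in AngII and 32.0 ± 7.62 in saline (SD, n = 4 each), with a log2 fold change of 0.49 ± 0.13 for AngII against saline (adjusted p = 0.0729). Adgre1, which encodes the F4/80 antigen, averaged 11.4 ± 1.79, 12.9 ± 0.877 and 8.77 ± 2.01 CPM in AngII_FI, AngII and saline. Every AngII library exceeded every saline library for both genes. For Cd14, the co-receptor for bacterial lipopolysaccharide, the log2 fold change was 0.70 ± 0.23, and for Fcgr1, the high-affinity receptor for immunoglobulin G, it was 0.80 ± 0.23. Fcgr3, a low-affinity receptor for the same antibodies, and Cd84, a receptor of the SLAM family, had 0.63 ± 0.24 and 0.59 ± 0.22, with overlap between the groups. Mertk, a receptor for dying cells, had the smallest difference of the 9, at 0.15 ± 0.31. The adjusted p-values of these 6 were 0.0884 to 0.882 (edgeR).

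Of the 4 adaptors and signalling partners, Laptm5 rose. Laptm5 (chr4:130913125-130936141, plus strand), a lysosomal membrane protein of blood cells, had 24.2, 24.1, 20.1 and 25.9 CPM in AngII_FI, 28.0, 26.1, 26.1 and 29.9 CPM in AngII, and 15.1, 18.2, 19.5 and 16.8 CPM in saline. In CPM by library totals the 3 groups did not overlap one another: every AngII value was above every AngII_FI value, and every AngII_FI value above saline. Divided by the scaling factors of the fit (0.952 for AngII_FI 4, 1.08 for AngII 1), AngII_FI 4 would stand above AngII 1. The log2 fold change of Laptm5 for AngII against saline was 0.65 ± 0.11 (adjusted p = 0.0138, edgeR), lost without saline 4 or AngII 4. Tyrobp and Fcer1g, adaptors that couple receptors such as Trem2 and the Fc receptors to Syk kinase, had values of nearly the same size, both 0.62 (SE 0.19 and 0.15), with adjusted p-values of 0.107 and 0.0598. Lst1, a small membrane protein of leukocytes, had 0.53 ± 0.34 on 24 to 91 counts per library, and its groups overlapped.

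Of the 7 lysosomal and effector genes, 2 rose. Cd68 (chr11:69664213-69666153, minus strand), a lysosomal glycoprotein of phagocytes, had 8.07, 6.92, 9.36 and 8.04 CPM in AngII_FI, 8.56, 8.04, 8.43 and 11.6 CPM in AngII, and 4.45, 6.48, 5.48 and 6.27 CPM in saline. Neither angiotensin II group overlapped saline, and AngII 4 stood well above the other AngII libraries. Ctss (chr3:95526786-95556403, plus strand) had 24.9, 25.0, 24.6 and 26.6 CPM in AngII_FI, 28.0, 23.9, 25.1 and 37.6 CPM in AngII, and 17.4, 19.0, 19.5 and 15.3 CPM in saline. Again AngII 4 was the highest library, and no value with angiotensin II reached down to saline. The log2 fold changes were 0.68 ± 0.15 for Cd68 (adjusted p = 0.0424) and 0.67 ± 0.14 for Ctss (adjusted p = 0.0296, edgeR). Cd68 lost its call in 10 of the 12 fits that left out 1 library (all but those without AngII_FI 2 or AngII_FI 3), and Ctss in 6 (any saline library, AngII 3 or AngII 4).

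Lyz2 and Ctsb, the most abundant members, did not pass. Lyz2 (chr10:117277331-117282321, minus strand) had 267, 239, 217 and 272 CPM in AngII_FI, 255, 251, 250 and 292 CPM in AngII, and 176, 212, 232 and 154 CPM in saline. AngII and saline did not overlap, but the log2 fold change of 0.42 ± 0.13 had an adjusted p of 0.118 (edgeR). Its near copy Lyz1 was at 1.03 to 1.65 CPM, and how reads shared between the copies were counted is not given in the sources used here. Ctsb (chr14:63122462-63145923, plus strand) had 353, 416, 418 and 401 CPM in AngII_FI, 407, 374, 376 and 424 CPM in AngII, and 376, 374, 416 and 415 CPM in saline. The 3 groups overlapped throughout, and the log2 fold change of -0.02 ± 0.07 for AngII against saline was the only one of the 30 below 0. The exons of Ctsb share 774 bases, 12.8% of its exon length, with Fdft1 on the opposite strand, which reached 119 CPM, and the strand setting of the counting is not given in the sources used here. Mpeg1, which encodes a pore-forming protein of phagocytes, had a log2 fold change of 0.58 ± 0.19 for AngII against saline. Lgals3, a galactose-binding lectin, had 0.61 ± 0.25, and Gpnmb 0.08 ± 0.35, all 3 with overlapping groups.

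None of the 5 leukocyte surface genes passed in AngII against saline, though all 5 were higher at an unadjusted p under 0.05. Their log2 fold changes ran from 0.38 ± 0.15 for Ptprc, the CD45 phosphatase found on nearly all leukocytes, to 0.85 ± 0.22 for Cd52, a small surface glycoprotein. Cd37 and Cd53, tetraspanins of leukocytes, had 0.75 ± 0.24 and 0.59 ± 0.18, and Ms4a7, a membrane protein of macrophages, had 0.77 ± 0.22. Spi1, which encodes the transcription factor PU.1 that myeloid cells need to form, averaged 6.63 ± 0.964 CPM in AngII_FI, 7.12 ± 0.233 in AngII and 4.93 ± 0.827 in saline (SD, n = 4 each), with 0.51 ± 0.15 (adjusted p = 0.105). Aif1, the actin-binding protein known as Iba1, came close to the threshold with 0.86 ± 0.21 (adjusted p = 0.0540, edgeR). Every AngII value was above every saline value for Cd52, Cd37, Cd53, Ms4a7, Spi1 and Aif1, but not for Ptprc.

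Because the spread is estimated over all 12 libraries, leaving out AngII_FI 3 also changed this comparison. Without it, 11 of the 30 rose with angiotensin II, against 2.49% of all genes, and none fell, against 1.37%. These were the 8 named above and Fcer1g, Cd52 and Aif1, with adjusted p-values of 0.0212, 0.0369 and 0.0364 (edgeR). The common coefficient of biological variation was 0.343 with the library and 0.269 without it. Without saline 4 only C1qb was called, as were 0.444% of all genes in the higher direction, and without AngII 4 only C1qb and C1qc were, as were 0.518% of all genes.

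**Figure D3:**
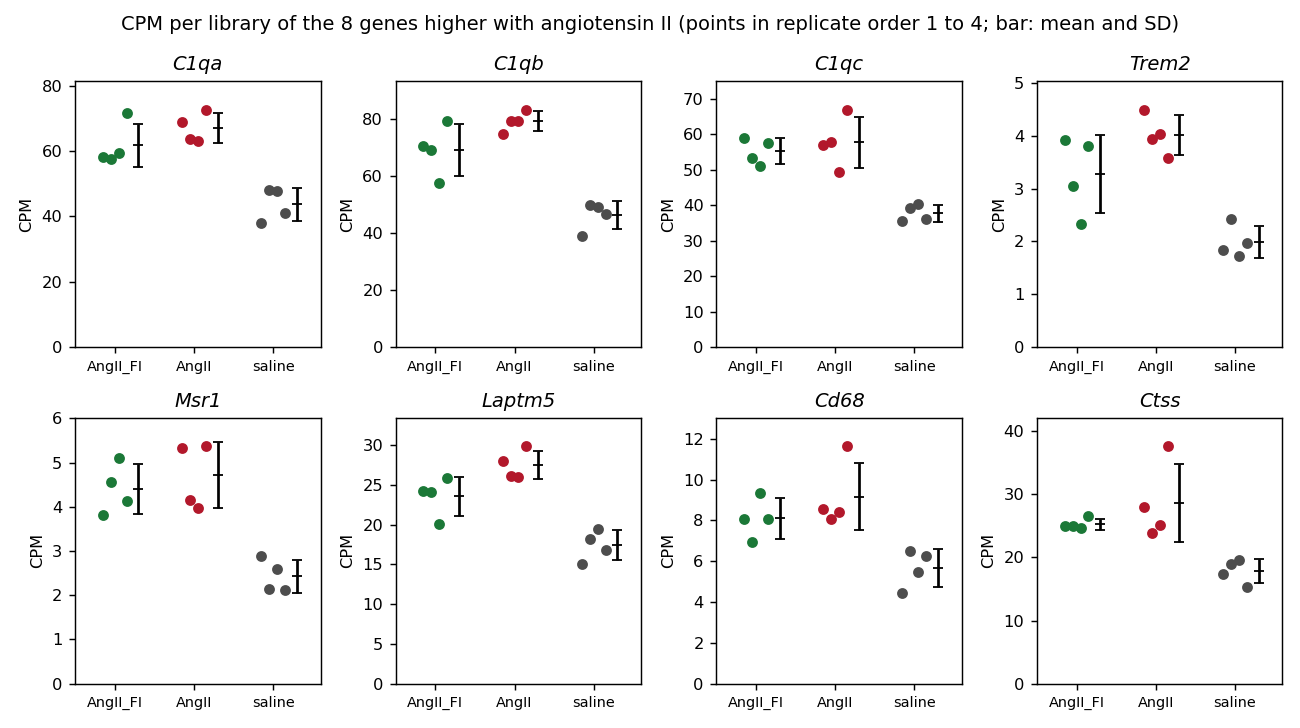
CPM per library of the 8 genes that rose with angiotensin II, 1 panel each, with AngII_FI, AngII and saline from left to right; points are libraries in replicate order 1 to 4, and the bar beside them is the mean with its SD. Every AngII point lies above every saline point in all 8 panels, and the only AngII_FI point that reaches saline is Trem2 in AngII_FI 3, at 2.33 CPM.

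PU.1, the product of Spi1, binds purine-rich sites with a GGAA core, so the upstream sequences of the members were searched for the letters GAGGAAG on either strand. Sequences of the 250 bases before the gene start were taken from RefSeq (GRCm38.p6) and existed for 20 of the 30 genes. The genes with no entry used were Tyrobp, Adgre1, Lst1, Csf1r, C1qa, Cd14, Msr1, Cd52, Spi1 and Ctsb. GAGGAAG or its reverse CTTCCTC occurred in 6 of the 20 (30%), which were C1qc, Trem2, Fcgr1, Fcgr3, Laptm5 and Cd37, and in 12.0% of the 27025 genes of the table. In all 7 matching entries of these 6 genes (Fcgr3 has a pair of overlapping ones) the letters read CTTCCTC on the strand of the gene. The planned search took both strands together and did not single out an orientation. That orientation was held by 30.4% of the 23 member entries, with the 1 stretch of Fcgr3 counted 2 times, and by 5.33% of all 32851 entries. The other orientation, GAGGAAG on the strand of the gene, was held by 0% of the member entries and 5.53% of all entries. The match began 194 bases before the RefSeq start of C1qc, 56 before that of Fcgr1, 41 before Trem2, 39 before Laptm5, 24 before Cd37, and 16 and 7 before the 2 starts of Fcgr3, which is 1 stretch of letters counted from both. GENCODE M21 starts 4 of these genes farther upstream: the windows share 151 bases with GENCODE exons of C1qc, 191 with those of Laptm5, 165 with those of Cd37 and 27 with those of Fcgr3, so that these windows lie partly or wholly inside the GENCODE genes. Within the last 60 bases, a distance chosen after these positions were seen, 6 of the 23 member entries held it, the 6 including Fcgr3 2 times, against 2.99% of all entries. TGACTCA or TGAGTCA, the AP-1 letters, occurred in Cd68 and Cd84 (10% of the 20, against 5.16% of genes), in Cd68 at 149 and 24 bases before the start. The core GGAA or TTCC, which is part of GAGGAAG, occurred in all 20, as in 94.2% of genes. A match of letters is a description of the sequence only, and binding was not measured here.

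Below stand the windows of 2 members that carry the CTTCCTC match close to the start, Trem2, which rose, and Fcgr1, and of 2 that rose without that match, C1qb and Cd68, so that they can be compared. None of these windows shares a base with an exon of its gene in GENCODE M21. Trem2 is chr17:48346151-48346400 on the plus strand, Fcgr1 chr3:96293970-96294219, C1qb chr4:136886201-136886450 and Cd68 chr11:69666171-69666420, these on the minus strand, all in GRCm38.p6. Each is written 5′ to 3′ on the strand of the gene and ends at the base before the RefSeq start, which for C1qb and Cd68 lies a few bases outside the GENCODE gene. Capitals mark CTTCCTC in Trem2 and Fcgr1 and TGAGTCA in Cd68, and C1qb holds neither.
Trem2: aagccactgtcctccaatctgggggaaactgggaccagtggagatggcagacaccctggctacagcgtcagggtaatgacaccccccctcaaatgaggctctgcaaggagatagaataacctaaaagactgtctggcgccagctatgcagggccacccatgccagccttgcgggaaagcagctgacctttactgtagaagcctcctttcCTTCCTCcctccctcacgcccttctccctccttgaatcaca
Fcgr1: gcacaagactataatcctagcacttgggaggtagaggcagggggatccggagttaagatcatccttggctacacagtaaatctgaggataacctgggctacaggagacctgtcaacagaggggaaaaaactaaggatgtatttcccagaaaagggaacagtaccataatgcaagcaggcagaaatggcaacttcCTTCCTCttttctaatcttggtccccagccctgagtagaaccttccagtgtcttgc
C1qb: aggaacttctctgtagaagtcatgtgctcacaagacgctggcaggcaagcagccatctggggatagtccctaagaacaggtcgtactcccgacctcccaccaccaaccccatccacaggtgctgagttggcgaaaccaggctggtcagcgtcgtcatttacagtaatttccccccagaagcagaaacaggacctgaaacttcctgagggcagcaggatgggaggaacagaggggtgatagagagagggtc
Cd68: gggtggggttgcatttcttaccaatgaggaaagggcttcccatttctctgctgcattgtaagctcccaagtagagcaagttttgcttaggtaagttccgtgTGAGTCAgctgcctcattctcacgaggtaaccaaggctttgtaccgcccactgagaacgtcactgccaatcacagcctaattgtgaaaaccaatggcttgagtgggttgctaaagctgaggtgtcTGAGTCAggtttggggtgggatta

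Adding Forsythoside I to angiotensin II gave no call among the 30 genes. In AngII_FI against AngII, 0 were higher and 0 lower at an adjusted p under 0.05, as among all genes, of which 0% were higher and 0% lower. None of the 30 reached an unadjusted p under 0.05 in edgeR's quasi-likelihood test, while 5.46% of all genes were higher and 4.49% lower by that rule, and limma-voom called 0 members and 0 genes in all. DESeq2 also called 0 members, while it called 0.0809% of all genes higher and 0.236% lower. The log2 fold changes ran from -0.34 ± 0.33 for Lst1 to 0.23 ± 0.25 for Lgals3, with a median of -0.12 against 0.02 over all genes. Of the 30 values 26 lay below 0, as did 46.9% of those of all genes. Because the 30 genes moved together between libraries, these are not 30 separate results. Their adjusted p-values were 0.669 to 0.996 (edgeR), which does not show that the groups were alike.

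In AngII_FI against AngII, C1qa had a log2 fold change of -0.05 ± 0.10, C1qb -0.13 ± 0.12 and C1qc 0.0048 ± 0.10. Trem2 had -0.21 ± 0.20, Msr1 -0.03 ± 0.16, Cd68 -0.12 ± 0.15 and Ctss -0.11 ± 0.14. Csf1r, Tyrobp and Spi1 had -0.02 ± 0.13, -0.15 ± 0.19 and -0.03 ± 0.15. Laptm5, at -0.15 ± 0.11 with an adjusted p of 0.669 (edgeR), was the only member in which every AngII_FI library lay below every AngII library in CPM by library totals. That arrangement was found in 5.12% of all genes, and the reverse one in 0.858%.

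**Figure D4:**
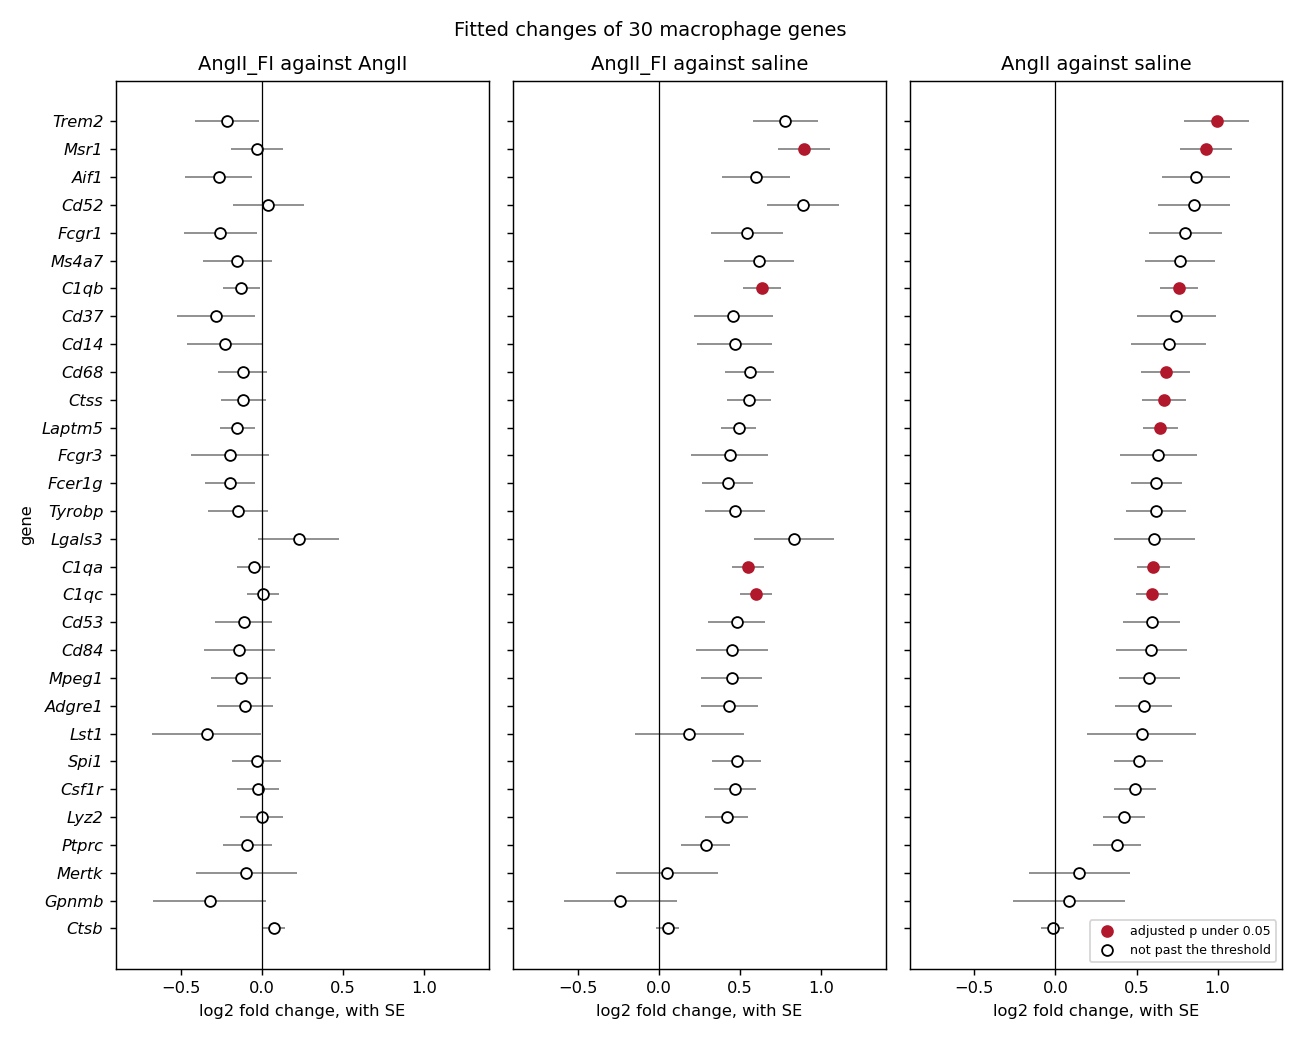
Fitted log2 fold change with its SE for each of the 30 genes (down the page) in AngII_FI against AngII, AngII_FI against saline and AngII against saline; filled points passed an adjusted p of 0.05 in edgeR's quasi-likelihood test and open points did not. No point is filled in the first panel, where 26 values lie below 0, and 4 and 8 are filled in the other panels.

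Without AngII_FI 3 the median of AngII_FI against AngII was -0.07, against -0.0027 over all genes, 23 of the 30 values were below 0 (50.4% of all genes). Again 0 members were called higher and 0 lower, as were 0% and 0.00565% of all genes, and limma-voom and DESeq2 were run on all 12 libraries only. At an unadjusted p under 0.05, 1 member was lower, Mertk, against 4.56% of all genes. The member that moved most was Mertk. It had 3.78, 3.11, 9.64 and 3.35 CPM in AngII_FI, 6.59, 6.33, 4.05 and 5.00 CPM in AngII, and 4.08, 6.01, 5.64 and 3.78 CPM in saline. The library with liver RNA held the highest value of all 12, and the other 3 AngII_FI libraries lay below every AngII library. The log2 fold change of AngII_FI against AngII was -0.10 ± 0.31 with that library and -0.58 ± 0.19 without it (unadjusted p = 0.0111, adjusted p = 0.542, edgeR). Cd37 had 2.21, 2.45, 3.90 and 2.15 CPM in AngII_FI, 3.50, 3.95, 3.07 and 3.04 CPM in AngII, and 1.32, 2.15, 2.95 and 1.61 CPM in saline. AngII_FI 3 again stood above the other AngII_FI libraries, and the log2 fold change was -0.29 ± 0.24 with it and -0.48 ± 0.23 without it (adjusted p = 0.732 and 0.644). Without AngII_FI 3, in CPM by library totals, the groups of 4 members did not overlap, with AngII_FI lower in Laptm5, Mertk, Ptprc and Cd37. For Ptprc the gap was narrow, from 11.54 CPM in AngII_FI 1 to 11.55 CPM in AngII 3. Divided by the scaling factors of the fit on all 12 libraries (0.950 for AngII_FI 1, 0.960 for AngII 3), AngII_FI 1 would stand above AngII 3. AngII_FI lay lower without overlap in 9.89% of all genes, and higher without overlap in 1.32%. Mertk and Cd37 were singled out after their values were seen.

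**Figure D5:**
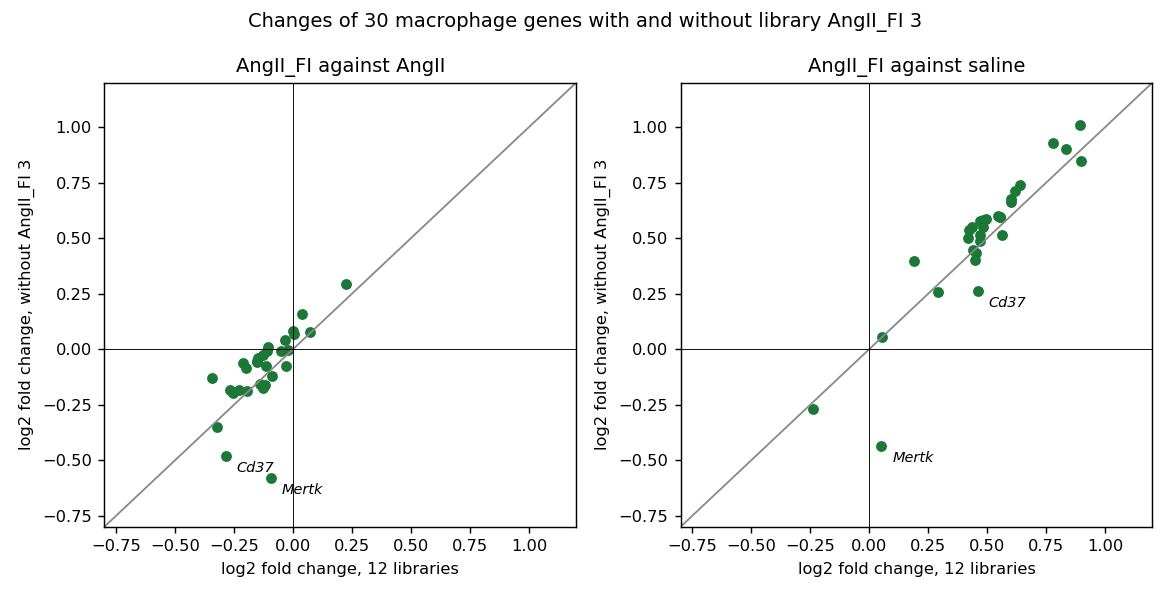
Log2 fold change of each of the 30 genes fitted on all 12 libraries (across) and without AngII_FI 3 (up), for AngII_FI against AngII (left) and AngII_FI against saline (right); the diagonal marks equal values. Most points lie near the diagonal, and Mertk lies farthest below it, at -0.10 with and -0.58 without the library in the left panel.

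In mice given angiotensin II and Forsythoside I, 4 of the 30 genes rose against saline and none fell: C1qa, C1qb, C1qc and Msr1. By the same rule 0.719% of all genes were higher and 0.259% lower. The log2 fold changes were 0.55 ± 0.10 for C1qa (adjusted p = 0.0291), 0.64 ± 0.12 for C1qb (adjusted p = 0.0293), 0.60 ± 0.10 for C1qc (adjusted p = 0.0201) and 0.90 ± 0.16 for Msr1 (adjusted p = 0.0291, all edgeR). The median over the 30 was 0.48, against 0.02 over all genes, 29 of 30 values were above 0 (53.4% of all genes), and 21 were higher at an unadjusted p under 0.05 (10.4% of all genes). In 11 members every AngII_FI library lay above every saline library, as in 3.52% of all genes. This comparison shares its saline libraries with that of AngII against saline and its AngII_FI libraries with that of AngII_FI against AngII.

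Laptm5 came just short, at 0.49 ± 0.11 (adjusted p = 0.0523). Trem2 had 0.78 ± 0.20 (adjusted p = 0.0867), Ctss 0.56 ± 0.14 (0.0770) and Cd52 0.89 ± 0.22 (0.0791). Lgals3, whose AngII_FI libraries at 4.42 to 5.80 CPM stood above saline at 2.09 to 3.59 CPM, had 0.83 ± 0.25 (adjusted p = 0.118, edgeR). The values of AngII_FI against saline were 0.47 ± 0.13 for Csf1r, 0.47 ± 0.19 for Tyrobp, 0.42 ± 0.15 for Fcer1g, 0.42 ± 0.13 for Lyz2 and 0.48 ± 0.15 for Spi1, all past no threshold. Ctsb had 0.05 ± 0.07 and Gpnmb -0.24 ± 0.35.

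Without AngII_FI 3, 7 of the 30 rose against saline, as did 0.932% of all genes, and none fell, as did 0.311%. These were the 4 above and Trem2, Laptm5 and Cd52, with adjusted p-values of 0.0229, 0.0137 and 0.0417 (edgeR). The median was then 0.55 and the groups of 17 members did not overlap, against 4.72% of all genes. Mertk had -0.44 ± 0.19 (adjusted p = 0.300) without the library and 0.05 ± 0.31 with it. The 4 calls depended on single libraries: C1qa lost its call in 7 of the 12 fits that left 1 out, C1qb in 9, C1qc in 5 and Msr1 in 6, and none of the 4 was called without saline 2, saline 4, AngII_FI 1 or AngII_FI 4.

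Other genes of the same pathways were read from 7 further lists. By the same rule 1.57% of all genes were higher and 0.662% lower in AngII against saline. In AngII_FI against saline 0.719% were higher and 0.259% lower. In AngII against saline, 2 of 18 tested genes of a list of Trem2, Tyrobp and Fc receptor signalling rose and none fell (median 0.34), among them Inpp5d, a lipid phosphatase, by 0.71 ± 0.14. Of 15 tested genes for uptake of dying cells and scavenging, 4 rose (median 0.40). These were Tyro3 (0.80 ± 0.16), Axl (0.55 ± 0.11), Pros1 (0.38 ± 0.08) and Stab1 (0.54 ± 0.12). Tyro3 and Axl are the relatives of Mertk, Pros1 is a ligand of Tyro3 and Mertk, and Stab1 is a scavenger receptor. In a list of 20 tetraspanins, leukocyte cytoskeletal genes and NADPH oxidase genes, 3 rose (median 0.39): Coro1a (0.71 ± 0.11), an actin-binding protein, and Ncf4 (0.98 ± 0.16) and Rac2 (0.70 ± 0.13), which take part in the oxidase. None passed among 5 genes of the Csf1 axis (median 0.43), 12 myeloid transcription factors (0.23), 13 genes of lipid-handling macrophages (0.39) and 19 lysosomal genes (0.05), and no gene fell in any of these lists. In AngII_FI against saline 1 lysosomal gene, the protease Ctsz (0.82 ± 0.17, adjusted p = 0.0498), and Coro1a (0.57 ± 0.11, adjusted p = 0.0385, edgeR) rose, and no other. The value of Ctsz includes 48.1 CPM in AngII_FI 3, the library with liver RNA. Ctsz was at 26.8, 23.5 and 24.3 CPM in AngII_FI 1, 2 and 4 and at 15.5 to 19.8 CPM in saline. AngII_FI against AngII had no call in any of these lists, with or without AngII_FI 3.

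Leaving out AngII_FI 3 raised the counts for AngII against saline to 3 in the signalling list, 6 in the uptake list, 5 in the tetraspanin, cytoskeletal and oxidase list, 1 among the transcription factors, 2 in the lipid list and 1 among the lysosomal genes. The share of all genes called higher rose as well, from 1.57% to 2.49%. For AngII_FI against saline the counts became 1 among the transcription factors, 1 in the lipid list, 1 among the lysosomal genes and 2 in the tetraspanin, cytoskeletal and oxidase list. There the share of all genes went from 0.719% to 0.932%.

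Markers of other cells were read in the same libraries, where 1.57% of all genes were higher and 0.662% lower in AngII against saline. Of 10 markers of resident cardiac macrophages 4 rose in AngII against saline (median 0.51) and none fell: Mrc1 (0.42 ± 0.08), the mannose receptor, Lyve1 (0.72 ± 0.15), a hyaluronan receptor, Cbr2 (0.54 ± 0.12), a carbonyl reductase, and F13a1 (0.55 ± 0.12), a subunit of clotting factor XIII. The summed levels of the 10 were 285 to 394 CPM in AngII_FI (285 to 295 CPM without AngII_FI 3), 304 to 336 CPM in AngII and 230 to 284 CPM in saline. Much of that sum was Gas6, which averaged 120, 129 and 116 CPM in AngII_FI, AngII and saline. Igf1, also listed, was at 123 CPM in AngII_FI 3, the library with liver RNA, and at 10.6 to 19.4 CPM elsewhere. Of 9 tested monocyte markers 2 rose, Ace (0.54 ± 0.11), the angiotensin-converting enzyme that endothelium also makes, and Vcan (0.98 ± 0.21), a proteoglycan that fibroblasts also make. The 10 listed monocyte markers summed to 95.4 to 457 CPM in AngII_FI, the highest again being AngII_FI 3 (95.4 to 123 CPM without it), 137 to 154 CPM in AngII and 74.3 to 103 CPM in saline. No dendritic cell marker of 8 passed (median 0.64), and these summed to 13.4 to 18.1 CPM in AngII_FI, 19.9 to 24.2 CPM in AngII and 12.6 to 18.1 CPM in saline. Most of that sum was Zbtb46, which averaged 11.6, 15.9 and 11.7 CPM in AngII_FI, AngII and saline. Of the Kupffer cell markers 5 were tested and none passed (median -0.22).

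Lymphocyte and neutrophil markers were low. All 13 T and NK cell markers averaged under 1 CPM, and their sums were 2.82 to 4.74 CPM in AngII_FI, 4.10 to 6.49 CPM in AngII and 2.70 to 7.57 CPM in saline. All 8 B cell markers averaged under 1 CPM as well, with sums of 2.76 to 8.42 CPM in AngII_FI, 2.67 to 4.24 CPM in AngII and 2.39 to 4.48 CPM in saline. Of the 10 neutrophil markers 8 averaged under 1 CPM and Ly6g, which defines mouse neutrophils, had no count in any library. Neutrophil sums were 2.26 to 3.25 CPM in AngII_FI, 2.76 to 4.87 CPM in AngII and 3.78 to 5.66 CPM in saline. No tested marker of T and NK cells (12, median 0.0098), B cells (8, median 0.19), neutrophils (5, median -0.47) or mast cells (5, median 0.75) passed in AngII against saline. The 7 mast cell markers summed to 3.48 to 6.51 CPM in AngII_FI, 5.22 to 8.30 CPM in AngII and 3.32 to 4.75 CPM in saline, and the 7 red cell markers to 84.4 to 209 CPM in AngII_FI, 50.0 to 102 CPM in AngII and 95.7 to 192 CPM in saline (5 tested, none past the threshold, median -0.53).

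Fibroblast markers rose beside the macrophage genes: 5 of 10 in AngII against saline (median 0.54), against 1.57% of all genes. Among them were Col1a1 (0.98 ± 0.10), Col1a2 (0.84 ± 0.10) and Col3a1 (0.98 ± 0.16), the chains of the main fibrillar collagens, and Pi16 (1.01 ± 0.14), a marker of adventitial fibroblasts. The 10 fibroblast markers summed to 2213 to 2364 CPM in AngII_FI, 2461 to 2833 CPM in AngII and 1794 to 2386 CPM in saline. Smooth muscle and pericyte markers had 1 increase of 10, Cnn1, calponin, by 1.33 ± 0.27 (median 0.20), and summed to 915 to 1051 CPM in AngII_FI, 1120 to 1254 CPM in AngII and 998 to 1156 CPM in saline. No endothelial marker of 10 passed (median 0.33), at 719 to 856 CPM in AngII_FI, 897 to 1186 CPM in AngII and 650 to 1010 CPM in saline. None of 10 cardiomyocyte genes passed (median -0.19), nor did any of the 10 hepatocyte genes tested (median 1.25). In AngII_FI against saline, Pi16 (0.77 ± 0.14) and Col1a1 (0.49 ± 0.10) were the only calls in all these marker lists, and AngII_FI against AngII had none. Leaving out AngII_FI 3 gave, for AngII against saline, 5 resident macrophage, 4 monocyte and 6 fibroblast markers higher, and 1 smooth muscle marker higher and 1 lower. Of all genes 2.49% were then higher and 1.37% lower. For AngII_FI against saline it gave 1 resident macrophage, 1 monocyte and 2 fibroblast markers higher, with 0.932% of all genes higher. The part of these other cell types in the levels of the 30 genes was not tested.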

How the data were processed

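RNA of mouse ventricles was measured in 12 libraries, 4 per group, grouped by the treatment label. Per the labels' protocols, extraction is named as TRIzol in one field and as an RNeasy kit in another, and libraries were made with a SMARTER kit. The authors deposited raw read counts per gene. HISAT, featureCounts 1.5.0-p3, DESeq 1.8.3 and the build GRCm38 are named in, and credited to, the submitters' processing notes. Not given in the sources used here are the strand setting, the annotation release and how multiply mapped reads were counted. Exons of Csf1r, Ctsb, Cd52 and Cd37 overlap genes on the opposite strand (15.1%, 12.8%, 14.5% and 0.369% of their exon bases), so their counts are uncertain.

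From these counts, CPM (counts per 1000000) was computed here from each library's total, and CPM per kb with the union of exons in GENCODE M21. Genes passing filterByExpr (17376; 17702 without AngII_FI 3) entered 1 edgeR 4.0.16 quasi-likelihood fit (R 4.3.3) of 3 group means with TMM scaling. Calls are Benjamini-Hochberg adjusted p under 0.05 over all genes tested, and the SE is the absolute log2 fold change over the square root of F. The procedure was tested on simulated data. Alternatives were DESeq2 1.42.0, limma-voom (limma 3.58.1), other scalings, filters and thresholds, a fit of only the 2 groups compared, a fit with the replicate number as a block, and leaving out each library. Tables were made with Python 3.11 and pandas 2.3.3.

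The members and all gene lists were chosen with earlier results of these data known. Values per library are given for members called in any comparison and for the 6 with the highest CPM per kb; of other lists, up to 4 called genes with the smallest p are named. Several genes stand in more than 1 list. A gene that this rule takes is not reported here.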

Additional observations from a re-analysis of the deposited data

Results flagged for a closer look

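In 7 of 90 sets of 4 libraries (30 genes in 3 groups), 1 library stood apart from the other 3 by more than Dixon's 95% limit; chance gives about 1 in 20. Mertk in AngII_FI 3 was at 9.638 CPM, the other AngII_FI libraries at 3.113 to 3.783 CPM. Cd37 in AngII_FI 3 was at 3.899 CPM, the others at 2.151 to 2.448 CPM. Both lie in the library with liver RNA. C1qa in AngII_FI 4 was at 71.5 CPM, the others at 57.56 to 59.45 CPM. In AngII 4, Cd68 was at 11.63 CPM, the others at 8.044 to 8.559 CPM, and Lyz2 at 292.1 CPM, the others at 249.9 to 254.5 CPM. Cd52 in AngII 3 was the lowest of its group at 3.456 CPM, the others at 5.544 to 5.808 CPM. Aif1 in AngII 2 was likewise the lowest at 3.644 CPM, the others at 4.527 to 4.661 CPM.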

How the results depend on the processing

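The 8 members higher in AngII than in saline (1.57% of all genes) became 5 with no filter on low counts (0.543%), 18 with DESeq2 (4.43%) and 14 at an adjusted p under 0.1 (3.1%), and 1 to 11 when single libraries were left out (0.444% to 2.49%). The 4 higher in AngII_FI than in saline (0.719%) became 2 with upper-quartile scaling (0.42%), 1 with no filter (0.179%), 11 with DESeq2 (3.12%), 1 with only the 2 groups fitted (0.21%), 7 without AngII 3 and AngII_FI 3 (0.814%), 8 at an adjusted p under 0.1 (1.86%), and 0 to 7 when single libraries were left out (0.197% to 0.932%). Apart from the replicate block below, the other alternatives left both counts within 1.5 times. No member was called lower, and none differed between AngII_FI and AngII, in any setting tried. No called member changed sign. Uncalled values changed sign in 4 of 360 fits without 1 library for AngII against saline, 22 of 360 for AngII_FI against AngII and 3 of 360 for AngII_FI against saline, and under the other settings in 0, 8 and 4 of 358 values; the cause was not tested. A minimum mean of 1 CPM left Gpnmb and Lst1 without a value.

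With the replicate number as a block, the counts were 3 for AngII against saline (C1qa, C1qb and C1qc; 0.604% of all genes) and 0 for AngII_FI against saline (0.294%). Deviations of 12 same-numbered pairs correlated weakly, at -0.0572 to 0.105, 1 of them over 0.1. That pair was AngII 3 with AngII_FI 3, the libraries with the most Alb. Of the 12 libraries 6 correlated best with their own number, out of 4 possible numbers. Whether the numbers pair the libraries cannot be told from these values, and the labels give no pairing.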
